A study of Homo sapiens with 16 samples.

Results

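The 54 genes described here act in the early secretory pathway, from protein entry into the endoplasmic reticulum (ER) to transport between the ER and the Golgi apparatus. They were chosen by symbol as members of ER translocation, ER shaping, the COPII coat, the p24 proteins and cargo receptors, with the knowledge that several of them fall when a hairpin is induced. All 54 were found among the 57500 genes of the count table and all 54 were among the 15566 genes with enough counts to test. The libraries come from MDA-MB-231, a human triple-negative breast cancer cell line, carrying a short hairpin RNA that doxycycline switches on. There were 4 groups of 4 libraries: the AKAP2 hairpin with doxycycline (shAKAP2 dox), the same line without it (shAKAP2 no dox), the scrambled control hairpin with doxycycline (shScramble dox), and that line without it (shScramble no dox). Each line carries a single hairpin, and neither its sequence nor how much doxycycline was used, or for how long, is stated in the labels. Libraries of a group are labelled as biological replicates, but separate cultures are not mentioned, so that errors and p-values measure only the spread between libraries, which may be technical.

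Secreted and membrane proteins enter the ER through the Sec61 channel, to which the signal recognition particle and its receptor bring translating ribosomes, and the ER membrane protein complex inserts some membrane segments. Finished proteins leave from ER exit sites in vesicles coated with COPII, whose assembly begins when the small GTPase SAR1 recruits the inner coat of SEC23 and SEC24. SEC24 binds cargo, SEC13 and SEC31 form the outer cage, and COPI-coated vesicles bring escaped residents and receptors back from the Golgi. Secretory cells and cells that make much matrix are known to lean on this route.

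Total counts per library ranged from 24482997 to 37472525. The targeted gene AKAP2, a scaffold for protein kinase A, had 4 counts summed over the shAKAP2 dox libraries, against 168 in shAKAP2 no dox. The sums were 212 in shScramble dox and 144 in shScramble no dox. These are low counts, and those of single shScramble dox libraries ranged from 22 to 87. All 7 marker genes of MDA-MB-231 averaged above 1 CPM (counts per 1000000 counts) in every group. Of 9 luminal epithelial markers, 5 also averaged above 1 CPM in every group, while ESR1 and FOXA1 were at 0 in both shAKAP2 groups. The share of counts from mitochondrial transcripts was 1.02% to 2.04% in shAKAP2 dox, 1.86% to 2.38% in shAKAP2 no dox, 2.2% to 3.02% in shScramble dox and 2.41% to 3.62% in shScramble no dox. The replicate 1 libraries of the shScramble line stood apart, with a mean correlation to the rest of their group of 0.9748 with doxycycline and 0.9778 without it, against 0.9816 to 0.9877 for the other libraries. In bulk RNA, fewer cells of a type and less RNA per cell cannot be told apart.

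Of the 54 genes, 14 hold the 7-letter word GAACACA in an annotated 3′ untranslated region (3′ UTR). The word was known from an earlier analysis of these data to be common in genes lower in shAKAP2 dox, and the falls described below were largest among its holders. The sites of the 6 holders with the largest falls and of 2 holders that did not fall are shown, to compare their flanks. TMED3, which did not fall either, and the other holders that fell are not shown. Each stretch has 29 bases, is read 5′ to 3′ on the transcript strand from GENCODE release 29 on GRCh38, and has the word in capitals.
ATL3 (chr11:63629277-63629305, minus strand): agatcaaacaaGAACACAacaagccccta
SEC23A (chr14:39032050-39032078, minus strand): tgtacttgcatGAACACAatcatatgatg
TFG (chr3:100748677-100748705, plus strand): ataatttgctgGAACACAaagaccaaaat
SRPRA (chr11:126263050-126263078, minus strand): gctacattgaaGAACACAaacctcttgtt
LMAN1 (chr18:59328140-59328168, minus strand): atttttgtaaaGAACACAaatagcagttg
MMGT1 (chrX:135964735-135964763, minus strand): gccactgttttGAACACAtttccttgaaa
SRPRB (chr3:133820860-133820888, plus strand): aacatacacaaGAACACActcctattcct
SAR1B (chr5:134603949-134603977, minus strand): caaagatatatGAACACAgatactgcctg
The sites of ATL3, SEC23A, TFG, SRPRA and LMAN1 continue with an A after the word. That of MMGT1 continues with a T, that of SRPRB with a C and that of SAR1B with a G. Among the holders not shown, TMED3 has a T there like MMGT1, and SSR3, which fell, has a C like SRPRB. In ATL3 the word starts at base 25 after the stop codon, and in LMAN1 at base 2936. The SAR1B site is in 1 of 5 annotated 3′ UTRs of the gene, and that of SEC23A in 2 of 6.

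When the AKAP2 hairpin was induced, a minority of these genes fell deeply and a similar number rose slightly. In shAKAP2 dox against shAKAP2 no dox, 14 were lower and 15 higher at an adjusted p under 0.05, the threshold used throughout for a call. Among all genes tested, 15.2% were called lower and 13.1% higher. Because the genes were chosen with knowledge of such falls, these counts describe the choice and carry no test. The 14 falls ranged from a log2 fold change of -0.20 for ERGIC1 to -1.89 for ATL3, while no rise went beyond the 0.44 of SEC23B. The median over the 54 was 0.0072 on the log2 scale, against 0.0016 over all genes tested. Scaled by exonic length, the levels in shAKAP2 no dox ran from 2.53 CPM per kb for TMED3 to 162 CPM per kb for SURF4. The place of TMED3 rests on 19470 annotated exonic bases, with a longest 3′ UTR of 15928 bases whose use in these cells was not measured. The libraries of both groups were apart for 28 of the 29 called genes, TMED5 being the exception. Called or not, the groups were apart with shAKAP2 dox higher for 18 of the 54 genes and lower for 19. Over all genes tested, the shares were 18.4% higher and 18.1% lower. Without shAKAP2 dox replicate 3, 8 genes were higher. Leaving out single libraries ended the calls of PREB, COPB1, TMED5, SEC13, TMEM115, SRPRB, SEC24C, SEC61B, TMED3 and ERGIC1, whose log2 fold changes lay between -0.20 (ERGIC1) and 0.40 (SRPRB). Luminal markers summed to 1285 to 1428 CPM in shAKAP2 dox libraries and 1063 to 1107 CPM in shAKAP2 no dox libraries, and fibroblast markers to 21.2 to 24.5 CPM and 23.2 to 35.1 CPM in these groups. Their part in these changes, and that of the mitochondrial share, was not tested.

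**Figure D1:**
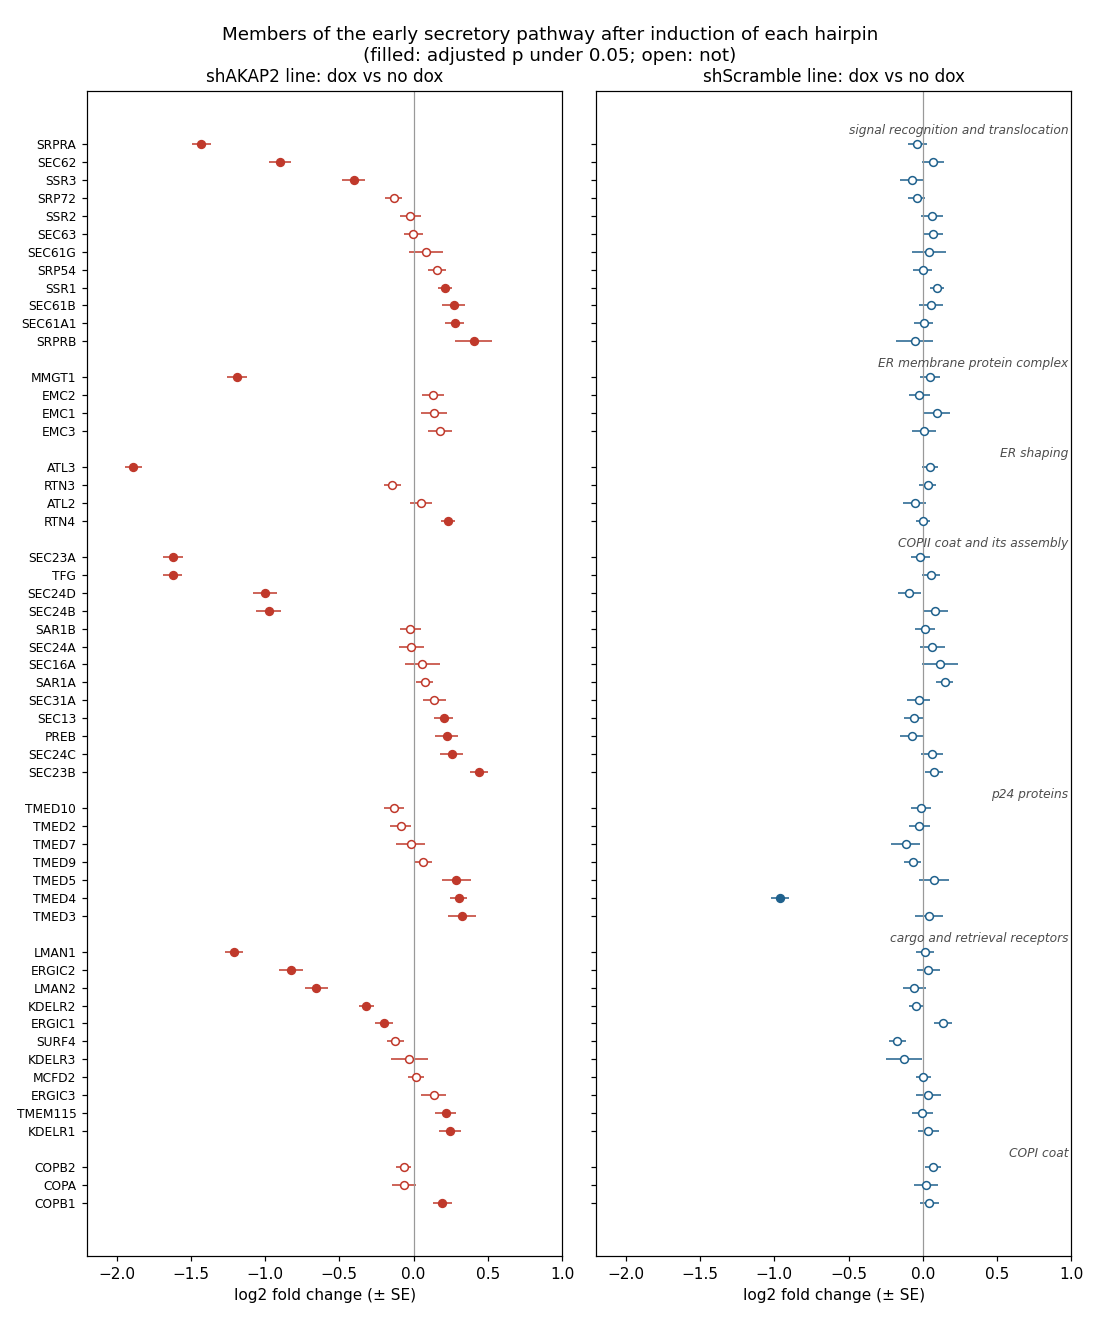
Log2 fold changes with their standard errors (x axes) of the 54 genes (rows, grouped by role) for doxycycline against none in the shAKAP2 line (left) and the shScramble line (right). Filled points have an adjusted p under 0.05. The falls on the left reach -1.89 and are found in several roles, while TMED4 is the only filled point on the right.

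Among signal recognition and translocation genes, 3 of 12 were lower and 4 higher in shAKAP2 dox. SRPRA encodes the receptor subunit on which the signal recognition particle docks. Measured SRPRA levels were 83.0, 82.9, 87.4 and 78.3 CPM in shAKAP2 dox, against 226, 228, 222 and 217 CPM in shAKAP2 no dox. That is a log2 fold change of -1.43 (SE 0.0649), or 2.69-fold lower, with all 4 induced libraries far below the uninduced ones. SRPRB, the membrane-anchored GTPase that holds SRPRA at the ER, moved the other way. For SRPRB, the values were 57.3, 63.9, 69.8 and 56.8 CPM in shAKAP2 dox and 46.3, 56.0, 46.2 and 38.8 CPM in shAKAP2 no dox. Its log2 fold change was 0.40 (SE 0.124), and the lowest induced library was just above the highest uninduced one. SEC62, a partner of the Sec61 channel that is also known as a receptor for ER turnover, was lower. The level of SEC62 was 102, 104, 92.1 and 101 CPM in shAKAP2 dox, against 182, 178, 193 and 193 CPM in shAKAP2 no dox. The log2 fold change was -0.90 (SE 0.0735), and again no induced library reached the uninduced range. SSR3, a subunit of the translocon-associated TRAP complex, was lower (-0.40, SE 0.0778 on the log2 scale) and its partner SSR1 higher (0.21, SE 0.0490). Of the channel itself, SEC61A1, the pore, was higher (0.28, SE 0.0644) with SEC61B (0.27, SE 0.0795), while SEC61G had 0.08 (SE 0.113) on the log2 scale and was not called. SRP54, SRP72, SEC63 and SSR2 were not called either.

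The falls in the ER membrane protein complex and among ER-shaping genes were each those of 1 gene. MMGT1, also known as EMC5, is a membrane subunit of the insertion complex. Transcripts of MMGT1 stood at 34.1, 35.5, 35.1 and 35.1 CPM in shAKAP2 dox and at 74.2, 79.4, 75.3 and 90.0 CPM in shAKAP2 no dox. Its log2 fold change was -1.19 (SE 0.0689), while EMC1, EMC2 and EMC3 lay between 0.13 and 0.18 and were not called. ATL3 is an atlastin, a GTPase that fuses ER tubules. ATL3 counts came to 117, 115, 115 and 124 CPM in shAKAP2 dox and to 426, 434, 423 and 456 CPM in shAKAP2 no dox. This was the deepest fall of the 54 genes, 3.70-fold (-1.89, SE 0.0574 on the log2 scale), and the 4 induced libraries were close together. Its paralog ATL2 had 0.05 (SE 0.0756) and was not called. RTN4 is a reticulon, a wedge-shaped protein that bends the ER membrane. RTN4 had 906, 936, 974 and 914 CPM in shAKAP2 dox, against 797, 812, 785 and 786 CPM in shAKAP2 no dox. Its log2 fold change was 0.23 (SE 0.0494), a small change relative to that of ATL3, and RTN3 was not called at -0.14 (SE 0.0599).

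**Figure D2:**
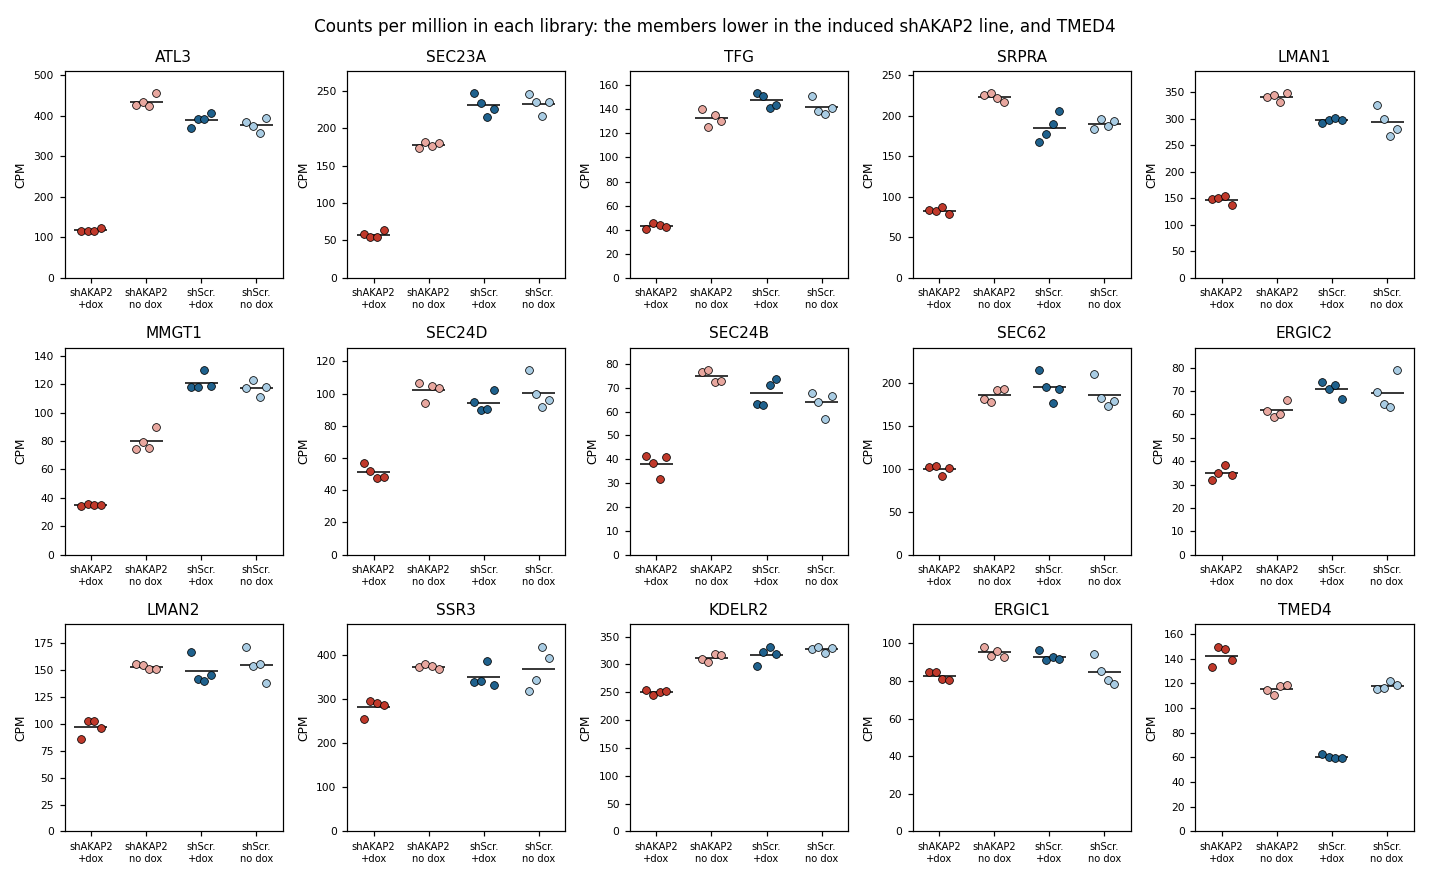
CPM (y axes, from 0) in each of the 16 libraries (points) with the group mean (line), for the 14 genes lower in shAKAP2 dox than in shAKAP2 no dox, and for TMED4. For the 14 genes the induced shAKAP2 libraries (dark red) lie below the other shAKAP2 libraries. For TMED4 the induced shScramble libraries (dark blue), at 59.3 to 62.9 CPM, lie below all others.

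In the COPII coat, 4 of 13 genes were lower and 4 higher, and paralogs moved in opposite directions. SEC23A and SEC23B encode alternative forms of the inner-coat subunit that activates the GTPase of SAR1. Measured SEC23A levels were 58.5, 53.9, 54.5 and 63.8 CPM in shAKAP2 dox, against 173, 182, 176 and 179.9 CPM in shAKAP2 no dox. For SEC23B, the values were 117, 119.8, 119 and 117 CPM in shAKAP2 dox and 87.4, 80.8, 92.0 and 87.4 CPM in shAKAP2 no dox. SEC23A was therefore 3.08-fold lower (-1.62, SE 0.0675 on the log2 scale) and SEC23B 1.36-fold higher (0.44, SE 0.0602), with no overlap in either gene. Scaled by exonic length, SEC23A made up 19.3% ± 1.41 of the SEC23 total in shAKAP2 dox and 50.1% ± 1.75 in shAKAP2 no dox (SD, n = 4 each). The summed level of both genes was 33.4 ± 0.280 CPM per kb in shAKAP2 dox against 39.7 ± 0.823 CPM per kb in shAKAP2 no dox. In the shScramble line the SEC23A share was 57.0% ± 2.06 with doxycycline and 58.5% ± 2.47 without it.

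SEC24 has 4 paralogs, which bind different export signals on cargo. The level of SEC24B was 41.2, 38.3, 31.8 and 40.8 CPM in shAKAP2 dox, against 76.5, 77.5, 72.5 and 72.7 CPM in shAKAP2 no dox. Transcripts of SEC24D stood at 56.6, 51.8, 47.3 and 48.4 CPM in shAKAP2 dox and at 106, 94.4, 104 and 104 CPM in shAKAP2 no dox. Both were lower, with log2 fold changes of -0.98 (SE 0.0859) for SEC24B and -1.0 (SE 0.0788) for SEC24D, and neither overlapped between the groups. SEC24C counts came to 91.5, 87.1, 90.9 and 80.9 CPM in shAKAP2 dox and to 74.9, 73.5, 75.2 and 70.0 CPM in shAKAP2 no dox. SEC24A had 73.5, 62.9, 58.7 and 68.5 CPM in shAKAP2 dox, against 66.6, 65.7, 58.6 and 75.3 CPM in shAKAP2 no dox. SEC24C was higher (0.26, SE 0.0754), and SEC24A was not called, at -0.01 (SE 0.0841), with overlapping libraries. By length-scaled level, SEC24C held 43.2% ± 2.89 of the SEC24 total in shAKAP2 dox against 28.9% ± 1.18 in shAKAP2 no dox. For SEC24B the shares were 19.2% ± 1.65 and 30.1% ± 0.997, for SEC24D 13.5% ± 0.442 and 21.6% ± 1.05, and for SEC24A 24.1% ± 1.36 and 19.4% ± 1.81, in shAKAP2 dox and shAKAP2 no dox. The summed SEC24 level was 38.0 ± 2.08 CPM per kb in shAKAP2 dox, against 47.6 ± 0.879 in shAKAP2 no dox. SEC24C shares 42.9% of its exonic bases with AC022400.8 on the opposite strand. Since no use of strand in counting is stated, it is not known whether reads of the 2 genes were told apart. The SEC24C level and the SEC24 shares and sums above are uncertain to that extent.

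TFG, which organises ER exit sites, was among the deepest falls. Measured TFG levels were 40.6, 45.9, 43.8 and 42.4 CPM in shAKAP2 dox, against 141, 126, 135 and 131 CPM in shAKAP2 no dox. Its log2 fold change was -1.62 (SE 0.0636), and no induced library came near the uninduced range. The GTPases that start the coat were not called: SAR1A had 0.08 (SE 0.0570) and SAR1B -0.02 (SE 0.0682) on the log2 scale. For SAR1A, the values were 224, 241, 251 and 241 CPM in shAKAP2 dox and 232, 230.4, 220.1 and 225 CPM in shAKAP2 no dox. The level of SAR1B was 76.2, 75.3, 76.8 and 76.4 CPM in shAKAP2 dox, against 73.7, 77.7, 77.2 and 80.8 CPM in shAKAP2 no dox. The groups overlapped for both, and SAR1A made up 83.3% ± 0.640 of their length-scaled sum in shAKAP2 dox and 82.3% ± 0.772 in shAKAP2 no dox. PREB, the exchange factor that loads SAR1 with GTP, was slightly higher (0.22, SE 0.0794), as was SEC13 of the outer cage (0.20, SE 0.0617). The cage partner SEC31A (0.14, SE 0.0760) and the exit-site scaffold SEC16A (0.06, SE 0.118) were not called.

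**Figure D3:**
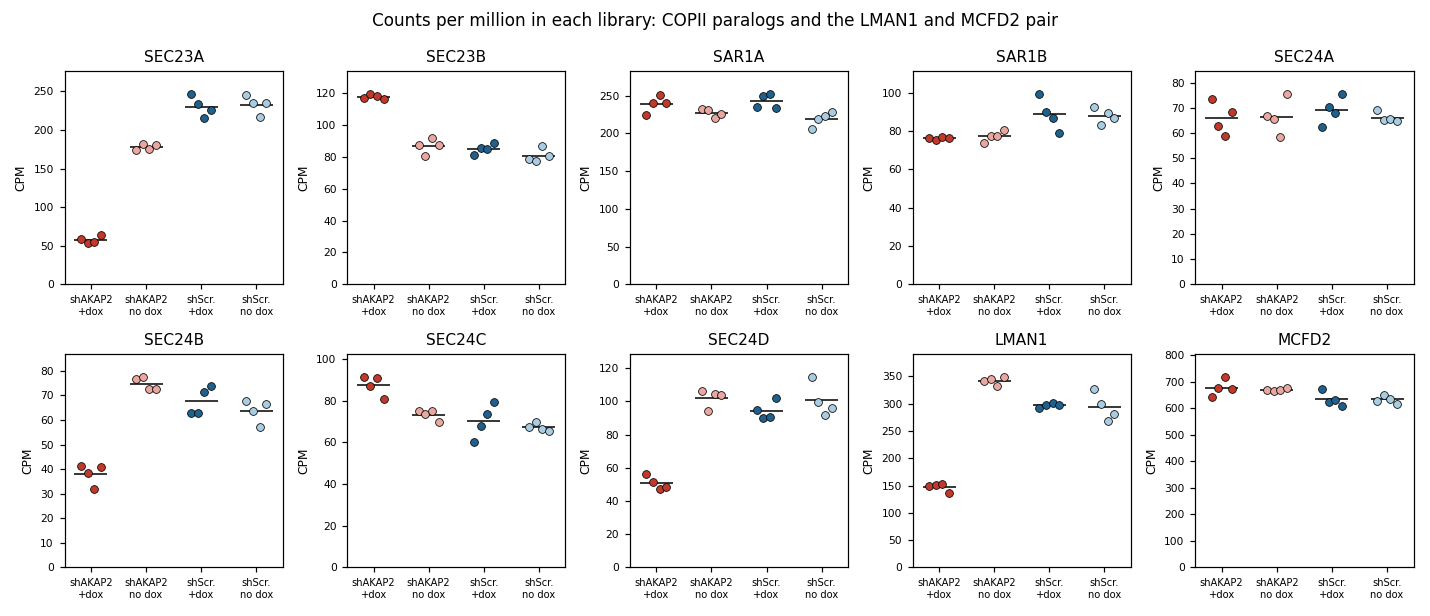
CPM (y axes, from 0) in each library (points) with the group mean (line) for the SEC23, SAR1 and SEC24 paralogs and for LMAN1 and MCFD2, with the groups from left to right as shAKAP2 dox, shAKAP2 no dox, shScramble dox and shScramble no dox. SEC23A, SEC24B, SEC24D and LMAN1 are lowest in the shAKAP2 dox libraries, and SEC23B is highest there.

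The p24 proteins cycle between ER and Golgi as cargo receptors that bind the coats. Of 7, TMED3 (0.32, SE 0.0938), TMED4 (0.30, SE 0.0576) and TMED5 (0.29, SE 0.0986) were higher in shAKAP2 dox (log2 fold changes), and none was called lower. Transcripts of TMED3 stood at 55.8, 67.9, 63.6 and 58.9 CPM in shAKAP2 dox and at 48.0, 50.2, 47.3 and 51.1 CPM in shAKAP2 no dox. TMED5 counts came to 160.3, 188, 183 and 183 CPM in shAKAP2 dox and to 124, 148, 145 and 168 CPM in shAKAP2 no dox. For TMED5 the highest uninduced library lay within the induced range, and for TMED3 the groups were apart. TMED2, TMED7, TMED9 and TMED10 lay between -0.13 and 0.07 and were not called. The counts of TMED7 are uncertain, because 24% of its exonic bases are shared with the readthrough gene TMED7-TICAM2.

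Among cargo and retrieval receptors, 5 of 11 were lower and 2 higher. LMAN1 (ERGIC-53) is a lectin that carries glycoproteins out of the ER in a complex with MCFD2, and it is known for export of clotting factors. LMAN1 had 149, 151, 154 and 137 CPM in shAKAP2 dox, against 342, 345, 332 and 349 CPM in shAKAP2 no dox. Measured MCFD2 levels were 645, 676, 719 and 675 CPM in shAKAP2 dox, against 669, 666, 671 and 677 CPM in shAKAP2 no dox. LMAN1 was 2.31-fold lower (-1.21, SE 0.0628 on the log2 scale) without overlap, while its partner MCFD2 had 0.02 (SE 0.0524) and overlapped. LMAN1 made up 16.2% ± 0.766 of the length-scaled sum of the pair in shAKAP2 dox, against 31.1% ± 0.437 in shAKAP2 no dox. LMAN2 (VIP36), a related lectin, was also lower. For LMAN2, the values were 86.1, 103, 103 and 96.3 CPM in shAKAP2 dox and 156, 154, 151 and 151 CPM in shAKAP2 no dox. Its log2 fold change was -0.66 (SE 0.0765). ERGIC2, a membrane protein that cycles through the ER-Golgi intermediate compartment, was lower as well. The level of ERGIC2 was 31.9, 35.0, 38.6 and 33.9 CPM in shAKAP2 dox, against 61.6, 59.1, 60.4 and 66.1 CPM in shAKAP2 no dox. The log2 fold change was -0.83 (SE 0.0801), and the smaller fall of ERGIC1 was -0.20 (SE 0.0627), while ERGIC3 had 0.14 (SE 0.0839) and was not called.

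The KDEL receptors, which return escaped ER residents, diverged: KDELR2 was lower (-0.32, SE 0.0512) and KDELR1 higher (0.24, SE 0.0710). By length-scaled level KDELR1 held 60.0% ± 1.00 of the KDEL receptor total in shAKAP2 dox and 51.3% ± 1.16 in shAKAP2 no dox. The summed level was 194 ± 5.53 CPM per kb in shAKAP2 dox and 192 ± 4.30 in shAKAP2 no dox, a difference smaller than the spread. SURF4, an export receptor for soluble cargo, was not called (-0.12, SE 0.0546), and the Golgi protein TMEM115 was higher (0.22, SE 0.0698). In the COPI coat COPB1 was higher. Transcripts of COPB1 stood at 496, 523, 524 and 504 CPM in shAKAP2 dox and at 436, 439, 465 and 451 CPM in shAKAP2 no dox. Its log2 fold change was 0.19 (SE 0.0637), a small but non-overlapping difference, and COPA and COPB2 were not called at -0.06 (SE 0.0814) and -0.07 (SE 0.0518).

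The genes that fell were mostly those with the word shown above in a 3′ UTR. Of the 14 holders, 11 were lower, 2 higher (SRPRB and TMED3) and 1 not called (SAR1B). Of the 40 genes without it, 3 were lower (LMAN2, ERGIC1 and ERGIC2), and 13 were higher. The median log2 fold change was -0.99 for the holders and 0.08 for the others. Among all tested genes with an annotated 3′ UTR, 14.1% held the word. Of those holders 39.6% were lower and 6.89% higher. Of the genes without it 13.2% were lower and 16.2% higher. The medians were -0.24 for those holders and 0.03 for the genes without the word. The search covered the transcript strand of every annotated 3′ UTR of a gene. Holders had longer 3′ UTRs, with a median longest 3′ UTR of 2507 bases against 1197.5 bases for the other members, and 2997 against 1203 bases over all genes. The part of the word in these falls was not tested.

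The holders can be grouped by the base that follows the word. All 7 genes with an A there were lower, with a median log2 fold change of -1.43 and a range from -1.89 to -0.32. Of the 4 with a T, MMGT1, SEC24D and SEC62 were lower and TMED3 higher. TMED3 holds the word 3 times, in 1 of 3 annotated 3′ UTRs, and which of them these cells use was not measured. Of the 2 with a C, SSR3 was lower and SRPRB higher. These groups were formed after the values were seen and were not tested against each other. The base after the word was read only in the 54 genes, so no share over all genes stands beside these counts.

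**Figure D4:**
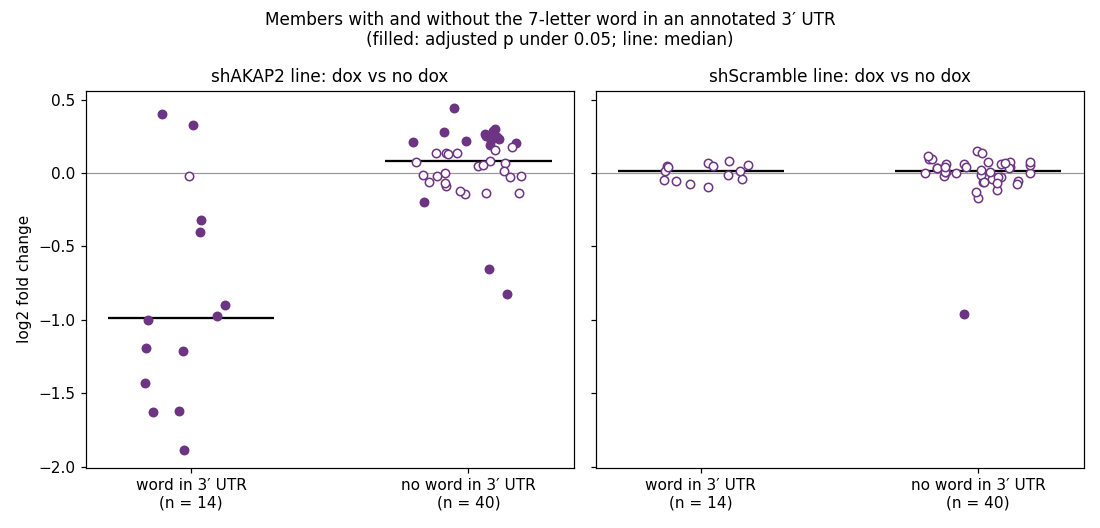
Log2 fold change (y axes) of each of the 54 genes (points) for doxycycline against none in the shAKAP2 line (left) and the shScramble line (right), divided by whether an annotated 3′ UTR holds the 7-letter word. Lines are medians and filled points have an adjusted p under 0.05. In the shAKAP2 line the medians are -0.99 for the 14 holders and 0.08 for the other 40 genes.

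In the shScramble line, 1 of the 54 genes was called in shScramble dox against shScramble no dox. That gene was TMED4, a p24 protein. TMED4 counts came to 62.9, 60.6, 59.3 and 59.8 CPM in shScramble dox and to 116, 116, 122 and 119 CPM in shScramble no dox. All induced shScramble libraries lay far below the uninduced ones, a log2 fold change of -0.96 (SE 0.0584), or 1.95-fold lower. Without both replicate 1 libraries the log2 fold change was -0.99. In the shAKAP2 line TMED4 moved the other way. TMED4 had 133, 149.9, 148 and 139 CPM in shAKAP2 dox, against 115, 110.4, 118 and 119 CPM in shAKAP2 no dox. Its 3′ UTR does not hold GAACACA. In 2 of 3 annotated 3′ UTRs TMED4 holds another 7-letter word, GTCGCCC. ATL3 and SAR1A also hold GTCGCCC and were not called in the shScramble line. Of tested genes with an annotated 3′ UTR, 39.0% of those lower in shScramble dox against shScramble no dox held GTCGCCC. Of those not called there, 4.95% held it. Seen the other way, 4.57% of all GTCGCCC holders were lower there, against 0.386% of the genes without it. The holders had longer 3′ UTRs, with a median longest 3′ UTR of 3102 bases against 1314 bases. This word was not in the plan, and its part was not tested. Among all genes tested, 0.52% were called lower and 0.559% higher in this comparison. With edgeR's quasi-likelihood test 0 of the 54 genes were called higher, as with DESeq2 and limma-voom, and 2 were higher and 2 lower at an unadjusted p under 0.05, beside 5.30% and 4.05% of all genes tested at that threshold.

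The other 53 genes had log2 fold changes between -0.17 (SURF4) and 0.15 (SAR1A) in the shScramble line. Over all tested holders of GAACACA, 0.606% were called lower and 0.826% higher in the shScramble line. None of the 11 holders that fell in the shAKAP2 line was called there, which is near those shares. Their log2 fold changes in the shScramble line lay between -0.09 (SEC24D) and 0.08 (SEC24B). For instance, SEC23A had 230.4 ± 13.5 CPM in shScramble dox and 233 ± 12.1 CPM in shScramble no dox (SD, n = 4 each). LMAN1 had 297 ± 4.29 CPM in shScramble dox and 294 ± 25.3 CPM in shScramble no dox. The summed level of 10 blood cell markers was 132.7 to 182.3 CPM in shScramble dox libraries and 80.9 to 99.6 CPM in shScramble no dox libraries. Of the 10, 4 averaged above 1 CPM in shScramble dox and 3 in shScramble no dox, while CD3E was at 0 in both. That of 9 fibroblast markers was 47.9 to 72.1 CPM in shScramble dox and 27.0 to 48.3 CPM in shScramble no dox. The part of these markers in the TMED4 result was not tested. In the shAKAP2 line the blood cell markers summed to 48.1 to 63.3 CPM with doxycycline and 69.5 to 80.0 CPM without it.

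The difference between the doxycycline effects of the lines (shAKAP2 minus shScramble) was called for 14 lower and 5 higher genes, beside 10.5% and 7.53% of all genes tested. The 14 were the genes lower in shAKAP2 dox, and the 5 were SEC61A1, RTN4, SEC23B, SEC13 and TMED4. TMED4 had the highest value of the 5, 1.26 (SE 0.0820) on the log2 scale. Without single libraries the count of higher genes ranged between 2 (without shAKAP2 dox replicate 2 or 3, or shAKAP2 no dox replicate 3 or 4) and 8 (without shScramble dox replicate 1). It was 3 without replicate 1 of either shAKAP2 group, shScramble dox replicate 2 or shScramble no dox replicate 2 or 3. The calls of SEC61A1, SEC13, RTN4 and SSR3 were lost in some of these cases. Set against each other under doxycycline, shAKAP2 dox and shScramble dox differed in 15 genes higher and 20 lower, beside 18.7% and 21.5% of all genes tested. These comparisons share their libraries with the doxycycline comparisons above and are descriptions likewise.

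Without doxycycline the lines already differed, in a comparison that the choice of genes did not refer to. Its libraries are the baselines of both doxycycline comparisons, so that its p-values are not independent of the choice. In shAKAP2 no dox against shScramble no dox, 7 of the 54 genes were higher and 9 lower by edgeR's quasi-likelihood test with Benjamini-Hochberg adjustment over all 15566 genes. Over all genes, 8.65% were called higher and 9.31% lower. The median of the 54 was 0.0070 on the log2 scale, against -0.013 over all genes. Without both shScramble replicate 1 libraries, 13 were higher and 12 lower. The share of mitochondrial counts also differed between these groups, as given above, and its part was not tested.

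The largest differences were those of the exit-site scaffold gene SEC16A and of MMGT1 in the insertion complex. MMGT1 was lower in the shAKAP2 line before induction. Measured MMGT1 levels were 74.2, 79.4, 75.3 and 90.0 CPM in shAKAP2 no dox, against 117, 123, 111 and 118 CPM in shScramble no dox. The log2 difference was -0.56 (SE 0.0670), with an edgeR adjusted p = 1.27e-05 and no overlap. EMC1, the large lumenal subunit of the same complex, was higher. For EMC1, the values were 111, 111, 106 and 103 CPM in shAKAP2 no dox and 88.3, 78.4, 73.2 and 79.2 CPM in shScramble no dox. Its log2 difference was 0.43 (SE 0.0878, edgeR adjusted p = 0.00241). SEC16A was also higher in the shAKAP2 line. The level of SEC16A was 69.5, 70.1, 68.3 and 69.5 CPM in shAKAP2 no dox, against 48.7, 44.4, 40.9 and 50.6 CPM in shScramble no dox. It differed by 0.59 (SE 0.119, edgeR adjusted p = 0.00235), the largest rise of the 54, with every shAKAP2 library above every shScramble library. SEC23A was lower as well, with a log2 difference of -0.39 (SE 0.0652) and an edgeR adjusted p = 0.000446. SEC23A had 246, 235, 216 and 235 CPM in shScramble no dox. The shAKAP2 no dox values given above were all below these.

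Of the translocation genes, SRP54, which reads signal sequences, and SEC61G, a small channel subunit, were lower. Transcripts of SRP54 stood at 92.3, 86.6, 97.5 and 94.1 CPM in shAKAP2 no dox and at 128, 117, 119 and 119.9 CPM in shScramble no dox. SEC61G counts came to 64.0, 62.1, 58.6 and 59.4 CPM in shAKAP2 no dox and to 96.9, 80.5, 70.9 and 78.5 CPM in shScramble no dox. SRP54 differed by -0.39 (SE 0.0624, edgeR adjusted p = 0.000318) and SEC61G by -0.42 (SE 0.113, edgeR adjusted p = 0.0146), and the SEC61G libraries of shScramble were widely spread. SEC61B was lower too (-0.29, SE 0.0794), and SRPRA was higher (0.23, SE 0.0633) before it fell on induction. The ER-shaping genes RTN4 and ATL3 were higher. RTN4 had 797, 812, 785 and 786 CPM in shAKAP2 no dox, against 687, 682, 687 and 673 CPM in shScramble no dox. Measured ATL3 levels were 426, 434, 423 and 456 CPM in shAKAP2 no dox, against 384, 376, 357 and 393 CPM in shScramble no dox. The differences were 0.22 (SE 0.0494) for RTN4 (edgeR adjusted p = 0.00467) and 0.20 (SE 0.0553) for ATL3 (edgeR adjusted p = 0.0159).

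Among the receptors, SURF4 was higher and KDELR3 lower in the uninduced shAKAP2 line. For SURF4, the values were 567, 571, 557 and 540.5 CPM in shAKAP2 no dox and 430.4, 452, 454 and 429 CPM in shScramble no dox. The level of KDELR3 was 31.5, 27.9, 28.5 and 30.1 CPM in shAKAP2 no dox, against 51.4, 41.9, 35.3 and 34.9 CPM in shScramble no dox. SURF4 differed by 0.34 (SE 0.0547, edgeR adjusted p = 0.000305) and KDELR3 by -0.47 (SE 0.122, edgeR adjusted p = 0.0117). The p24 gene TMED2 was lower. Transcripts of TMED2 stood at 421, 426, 415 and 452 CPM in shAKAP2 no dox and at 555, 484, 496 and 529 CPM in shScramble no dox. TMED2 differed by -0.27 (SE 0.0715, edgeR adjusted p = 0.014), and TMED5 by -0.30 (SE 0.0985) with overlapping libraries. The other calls were LMAN1, which was higher (0.22, SE 0.0618), and SEC13, which was lower (-0.22, SE 0.0616). COPA, COPB1 and COPB2 were not called. Some of these calls rested on single libraries. The edgeR adjusted p of ATL3 was 0.0538 without shAKAP2 no dox replicate 4, and that of SEC61B was 0.0523 without shAKAP2 no dox replicate 2. SEC13 was not called without shAKAP2 no dox replicate 2 or 3 or shScramble no dox replicate 2 (edgeR adjusted p = 0.0556 to 0.0687). LMAN1 was not called without shAKAP2 no dox replicate 2 or 4 or shScramble no dox replicate 3 or 4 (edgeR adjusted p = 0.0504 to 0.0604). TMED5 lost its call in 10 of 16 such fits, with an edgeR adjusted p of up to 0.149.

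**Figure D5:**
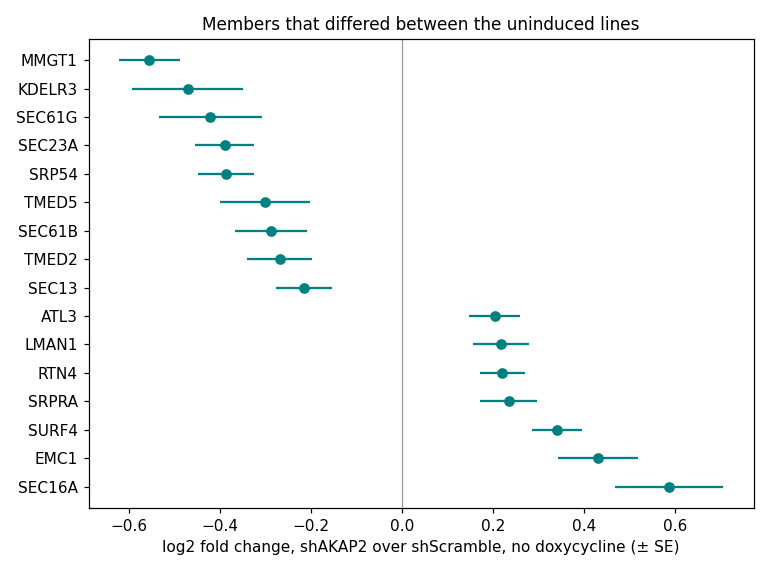
Log2 fold change with standard error (x axis) of shAKAP2 no dox over shScramble no dox for the 16 genes with an adjusted p under 0.05 (rows). The 7 positive values reach 0.59 (SEC16A) and the 9 negative ones -0.56 (MMGT1).

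The other genes of the pathway, 75 listed and 73 tested, were counted from a list of further subunits and partners. In shAKAP2 dox against shAKAP2 no dox, 18 were higher (24.7%) and 7 lower (9.59%), with a median log2 fold change of 0.09. Over all genes tested, 13.1% were higher and 15.2% lower. The falls with the smallest p were SPCS1 of the signal peptidase, at 44.4 ± 1.94 CPM in shAKAP2 dox and 77.5 ± 3.26 CPM in shAKAP2 no dox (SD, n = 4 each), and ARFGAP2, a GTPase activator of the COPI cycle (-0.64, SE 0.0703 on the log2 scale). The rises with the smallest p were SPCS3, also of the signal peptidase, at 317 ± 17.1 CPM in shAKAP2 dox and 192 ± 7.46 CPM in shAKAP2 no dox, and the GTPase gene ARF4 (0.56, SE 0.0556). Of the 7 other pathway genes that hold GAACACA, 4 were lower, SPCS1 among them, against 3 of the 66 without it. Over all tested genes with an annotated 3′ UTR, 39.6% of holders and 13.2% of the others were lower. These shares come from the same data that gave the word, so they are descriptions, and its part was not tested.

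In the shScramble line, 1 of the 73 was lower, beside 0.52% of all genes tested. It was the COPI subunit gene COPZ2, at 3.07 ± 0.754 CPM in shScramble dox and 5.73 ± 0.989 CPM in shScramble no dox. Between the uninduced lines, 17 of the 73 were lower in shAKAP2 no dox (23.3%) and 3 higher (4.11%), with a median of -0.11. Over all genes tested, 9.31% were lower and 8.65% higher. SSR4, a TRAP subunit, had 54.9 ± 3.56 CPM in shAKAP2 no dox and 102 ± 5.09 CPM in shScramble no dox (log2 difference -0.89, SE 0.101, edgeR adjusted p = 6.46e-06). BCAP31, an ER membrane chaperone, was also lower, with a log2 difference of -0.63 (SE 0.0739) and an edgeR adjusted p = 9.34e-06. STT3B (0.21, SE 0.0556) and STT3A (0.24, SE 0.0679), the catalytic subunits of the oligosaccharyltransferase, were higher, with edgeR adjusted p = 0.0145 and 0.021.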

How the data were processed

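Polyadenylated RNA of 16 libraries was sequenced. Per the labels' protocols, messenger RNA was enriched on oligo(dT) beads and libraries were made with the NEBNext Ultra II kit. The tools named in the submitters' processing notes are STAR 2.5.2b, featureCounts and Subread 1.5.2, with the build GRCh38; use of strand in counting is not stated. The table the authors deposited holds raw read counts for 57500 genes, of which 26937 had no count.

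Genes were filtered with filterByExpr, leaving 15566, and libraries scaled by TMM. edgeR 4.0.16 (R 4.3.3) fitted a quasi-likelihood model with 1 mean per group to all 16 libraries (12 residual degrees of freedom, biological coefficient of variation 14.4%). A gene was called at an adjusted p under 0.05 (Benjamini-Hochberg, over the genes tested). The SE of a log2 fold change comes from the F statistic. CPM are counts per 1000000 of the TMM-scaled library. CPM per kb divides by the union of a gene's exons in GENCODE release 29, which held 56898 of the identifiers, 56112 with the same symbol. Which exons these cells use was not measured, so that length-scaled levels and paralog shares depend on this union.

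The genes, the lists and the word GAACACA were chosen with earlier results of these data known, and GTCGCCC was not in the plan. The contrasts that hold induced libraries are therefore given without p-values, also that of the lines under doxycycline, although a test of it had been planned. Values in every library are given for 30 genes: per role, the 3 called genes with the largest change in the shAKAP2 doxycycline contrast and up to 2 called genes with the smallest p between uninduced lines, every gene called in the shScramble line, and the SEC23, SEC24, SAR1 and LMAN1/MCFD2 sets. Other pathway genes are named by smallest p, 2 per contrast and direction. The counts of called genes and the fold changes of the 54 genes were recomputed under 23 alternatives (22 for the interaction), with DESeq2 1.42.0 and limma 3.58.1 among them. Paralog shares, word shares, medians and counts of other pathway genes were not. The pipeline was tested on simulated data.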

Additional observations from a re-analysis of the deposited data

Results flagged for a closer look

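The doxycycline effect differed between the lines by the interaction term of the edgeR fit for 19 genes, listed here as the effect in shAKAP2 minus that in shScramble on the log2 scale. It was -1.935 for ATL3, -1.68 for TFG, -1.607 for SEC23A, -1.393 for SRPRA, -1.236 for MMGT1, -1.225 for LMAN1 and -1.061 for SEC24B. Smaller negative differences were -0.9689 for SEC62, -0.91 for SEC24D, -0.8632 for ERGIC2, -0.5977 for LMAN2, -0.3351 for ERGIC1, -0.327 for SSR3 and -0.273 for KDELR2. Positive differences were 1.264 for TMED4, 0.3654 for SEC23B, 0.2706 for SEC61A1, 0.2639 for SEC13 and 0.2292 for RTN4. Since the genes were chosen with knowledge of falls on induction, these values are descriptions.

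Single libraries stood far from the other 3 of their group in 2 of the 120 groups searched (30 genes in 4 groups), where chance flags about 1 in 20. MMGT1 was at 130.1 CPM in replicate 3 of shScramble dox, above the rest of that group, and KDELR3 at 26.65 CPM in replicate 4 of shAKAP2 dox, below the rest.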

How the results depend on the processing

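Under the alternatives run, no named gene that was called reversed its direction. The interaction had 5 higher genes, 2 without a filter on low counts and 10 without both shScramble replicate 1 libraries; between uninduced lines, the 7 higher genes became 13 without those libraries. Leaving out each library in turn gave 8 to 17 higher and 13 to 17 lower genes in the shAKAP2 line, 0 to 0 and 1 to 1 in the shScramble line, 2 to 8 and 13 to 14 for the interaction, 5 to 10 and 6 to 12 between uninduced lines, and 15 to 15 and 17 to 21 between induced lines. The 8 came without shAKAP2 dox replicate 3, where SRPRB, PREB, SEC24C, SEC13, TMED5, ERGIC1, TMEM115 and COPB1 lost their calls. The labels do not say that equal replicate numbers are paired, and same-numbered deviations correlated at -0.0178 to 0.053 in the shAKAP2 line and 0.0234 to 0.4 in the shScramble line; with the replicate number as a block, counts stayed at 15 higher and 14 lower in the shAKAP2 line, and 7 higher and 8 lower between uninduced lines, where TMED5 lost its call, and SEC61A1 lost its interaction call. Without the filter, PREB, SEC13, ERGIC1, TMEM115 and COPB1 lost their calls in the shAKAP2 line, SEC61A1, RTN4, SEC13, KDELR2 and ERGIC1 for the interaction, ATL3, SEC13 and LMAN1 between uninduced lines, and ERGIC1 between induced lines. The cause of these shifts was not tested. Each of the 54 genes had at least 727 counts in every library.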
